A study of Mus musculus with 4 samples.

Results

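The genes described here are 6 genes of the p53 and DNA damage response, Mdm4, Phlda3, Btg2, Ier5, Parp1 and Xrcc5, chosen by name from the 4167 genes with a complete line in the deposited table. They were measured in long-term haematopoietic stem cells (LT-HSCs), the scarce stem cells of the marrow that sustain blood formation through life, sorted by flow cytometry from mouse tibia and femur. The ATF4 KO group came from mice with a conditional knockout of Atf4 and held 2 libraries, and the wild-type (WT) group held 2 libraries. ATF4 is the transcription factor that carries out the integrated stress response. The driver of the deletion, the age of the mice and the number of animals behind a library are not given in the sources used here. The p-values therefore measure the spread between libraries, which may be technical. Where neither ATF4 KO library held a read of a gene, its ATF4 KO values hold no spread of reads. Polyadenylated RNA was turned into libraries by a protocol adapted from Smart-seq2, which amplifies cDNA and so serves samples of few cells. Atf4 itself and Trp53, the gene of p53, lie outside the part of the genome analysed here, so the deletion was not checked in these libraries.

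p53 is a transcription factor that is held at a low level by the proteins MDM2 and MDM4 and is stabilised when DNA is damaged. It then switches on genes that halt division, dampen growth signals or start cell death. DNA breaks themselves are bound by sensor and repair proteins, among them PARP1 at strand breaks and the Ku70 and Ku80 pair at double-strand ends. In blood stem cells this response is known for deciding whether a damaged cell is kept, differentiates or dies.

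By role, Mdm4 encodes an inhibitor of p53. Phlda3, Btg2 and Ier5 are known p53 target genes. Phlda3 encodes a small pleckstrin-homology protein that competes with AKT for membrane lipids, Btg2 an antiproliferative protein that promotes mRNA deadenylation, and Ier5 an immediate early protein. Parp1 encodes the main poly(ADP-ribose) polymerase, and Xrcc5 encodes Ku80, a subunit of the DNA end-binding complex of non-homologous end joining. All 6 are protein-coding genes on chromosome 1 of GRCm38. In the GENCODE M21 annotation Xrcc5 lies at chr1:72307421-72394952 (+ strand), Mdm4 at chr1:132959484-133030561 (- strand) and Btg2 at chr1:134075170-134079120 (- strand). Phlda3 lies at chr1:135766119-135769136 (+ strand), Ier5 at chr1:155096361-155099636 (- strand) and Parp1 at chr1:180568924-180601254 (+ strand). Their merged exons run to 14798 bases in Mdm4 and 1559 in Phlda3, and Ier5 is a single exon. No exon of another annotated gene overlaps those of Mdm4, Phlda3, Btg2, Ier5 or Xrcc5. In Parp1, 7 exon bases are shared with a microRNA gene on the same strand.

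Of the 6 genes, all matched a RefSeq promoter window (GRCm38.p6, 250 bases before to 50 after the transcription start), and Mdm4 had 2 windows. These were searched on both strands for 3 motifs. The first was the cAMP response element TGACGTCA, a palindrome that ATF and CREB family factors bind. The second was the ATF4 composite element TGATGNAA, and the third was the decamer of a single p53 half-site. The cAMP response element stood in the Btg2 window alone among the 6 genes, and in 1.79% of 32851 promoter windows. The p53 half-site stood in the Ier5 window alone, and in 8.36% of all windows. The ATF4 composite element was in none of the 7 windows, and in 3.97% of all. The 2 windows with a match are shown 5′ to 3′ on the gene's strand, with the matched bases in capitals. They lie at chr1:134079106-134079405 (- strand) for Btg2 and at chr1:155099587-155099886 (- strand) for Ier5.

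Btg2: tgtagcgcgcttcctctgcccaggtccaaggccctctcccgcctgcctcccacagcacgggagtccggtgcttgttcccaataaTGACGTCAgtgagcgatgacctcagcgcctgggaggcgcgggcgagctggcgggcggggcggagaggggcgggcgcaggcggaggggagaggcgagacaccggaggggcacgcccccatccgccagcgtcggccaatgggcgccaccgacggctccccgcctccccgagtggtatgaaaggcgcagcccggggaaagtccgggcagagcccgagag
Ier5: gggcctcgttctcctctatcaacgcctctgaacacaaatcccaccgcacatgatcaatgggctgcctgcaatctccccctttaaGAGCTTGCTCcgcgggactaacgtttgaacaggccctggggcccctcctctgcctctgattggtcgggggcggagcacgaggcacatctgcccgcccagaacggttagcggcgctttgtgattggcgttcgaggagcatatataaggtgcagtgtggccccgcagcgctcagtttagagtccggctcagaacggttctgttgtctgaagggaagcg

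The Btg2 match began 166 bases before the start, as did the Ier5 match. A match describes the letters and is no evidence of a bound site.

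The deposited values are logarithms (log2) of reads, shrunk towards each gene's mean, and the whole reads behind them could be worked back for 1871 of the 1928 genes with a value, all 6 genes among them. Over these genes the libraries held 25095 reads in ATF4 KO 1 and 31847 in ATF4 KO 2, against 943362 in WT 1 and 772371 in WT 2. A read was found for 316 and 324 genes in the ATF4 KO libraries, against 1596 and 1756 genes in the WT libraries. The 10 most-read genes took 62.7% and 50.4% of the reads in ATF4 KO, against 12.9% and 14.0% in WT. The size factors, the depth terms by which reads are made comparable, were worked back from the deposited values as 0.036 and 0.0372 in ATF4 KO, against 21.7 and 17.2 in WT. Relative to WT 1 the ATF4 KO depth was thus 0.165% and 0.171% by size factor, but 2.66% and 3.38% by summed reads, and both scalings are given below. Of 12 genes listed as LT-HSC markers, 3 were in the table. Cd34, which is not confined to LT-HSCs, had 9 and 8 reads in ATF4 KO and 18288 and 15275 reads in WT. No read of Gfi1b or Slamf1 was seen in ATF4 KO, so the labelled cell type could be checked against few markers there. In WT, Slamf1 had 362 and 186 reads and Gfi1b 1579 and 1225, against 1983 and 2511 of Cd48 from the list of other blood cells. These reads do not settle the labelled cell type in WT. Of 20 markers of other blood cells, 11 had recovered reads, and 8 of these were at 0 in both ATF4 KO libraries. Fcer1g, an Fc receptor subunit gene of myeloid cells without recovered reads, had deposited log2 values of 14.31 and 13.73 in ATF4 KO, against 10.89 and 10.89 in WT (limma, adjusted p = 0.0564). Il2ra had 11 and 0 reads in ATF4 KO, against 22 and 8 in WT. Other genes of the list had few or no ATF4 KO reads. Cd48 had 2 and 2, against 1983 and 2511 in WT, and Fcgr3 had 2 and 0, against 627 and 665 in WT. Fcgr2b and Cxcr2 had 0 in both, against 456 and 468 for Fcgr2b and 133 and 160 for Cxcr2 in WT. Both libraries of ATF4 KO stand apart in depth, and the part that depth or other cells play in any difference from WT was not tested.

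In WT cells the 6 genes had 43 reads or more in each library, and their levels were alike in both. Parp1 had the most reads, 4077 in WT 1 and 3603 in WT 2. Xrcc5 had 1010 and 692 reads, Btg2 had 821 and 631, and Mdm4 had 606 and 546. Phlda3 had 70 and 75 reads and Ier5 had 53 and 43. After division by the size factors the ratio of WT 1 to WT 2 lay between 0.737 for Phlda3 and 1.15 for Xrcc5.

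Per kilobase of merged exon, Parp1 stood highest, with 35.5 and 39.7 size-factor-normalised reads in WT 1 and WT 2. Xrcc5 followed with 18.2 and 15.8, and Btg2 with 13.8 and 13.4. Phlda3 had 2.07 and 2.80, Mdm4 had 1.89 and 2.15, and Ier5 had 0.745 and 0.765. Both libraries kept this order, although the ranges of Phlda3 and Mdm4 over the pair overlapped. Parp1 stood above 95.7% of 1851 genes with a length and recovered reads, and Ier5 above 53.6%. The length of Mdm4 merges 14 annotated transcripts, which lowers its value per kilobase.

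In ATF4 KO cells, 5 of the 6 genes had 0 reads in library 1. Library 2 held reads of 4 genes, in another order than in WT: 167 of Mdm4, 77 of Btg2, 18 of Xrcc5 and 1 of Parp1. For Phlda3 and Ier5 neither ATF4 KO library held a read. In bulk RNA, fewer cells and less RNA per cell cannot be told apart, and reads from PCR-amplified libraries are not independent molecules, so the intervals below cover counting error only.

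**Figure D1:**
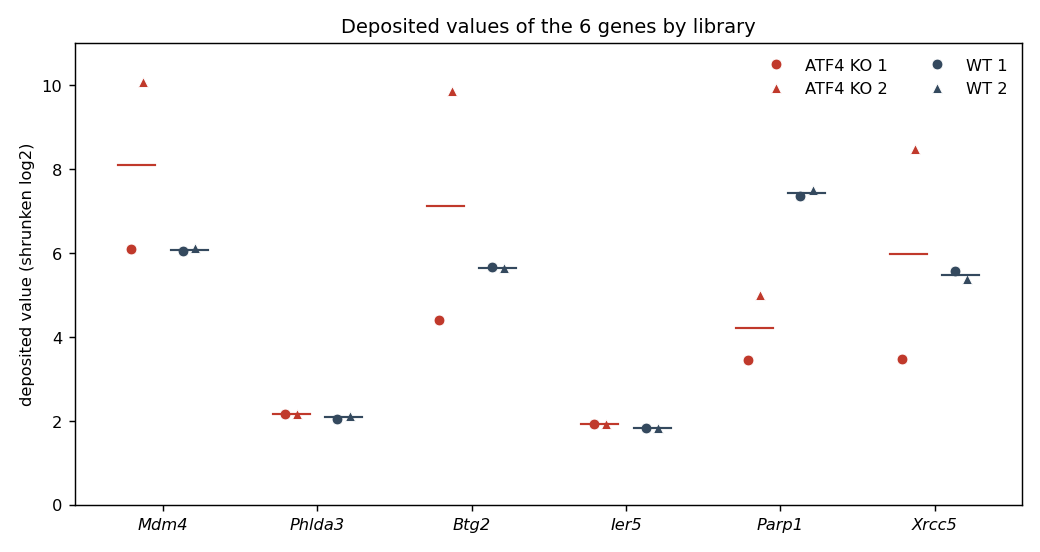
Deposited log2 values (y axis) of the 6 genes in each library, with the mean of each genotype as a bar. In ATF4 KO the circle (library 1) and triangle (library 2) lie up to 5.44 apart, in Btg2. The WT symbols nearly coincide on this scale, which is shrunk towards each gene's mean.

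Mdm4, the p53 inhibitor, had deposited log2 values of 6.10 and 10.09 in ATF4 KO, against 6.04 and 6.11 in WT. Its reads were 1 and 167 in ATF4 KO, against 606 and 546 in WT. The value of library ATF4 KO 1 lay between the WT values, although it rested on 1 read, and that of ATF4 KO 2 lay above both. The mean was 8.09 ± 2.82 in ATF4 KO and 6.08 ± 0.05 in WT (SD, n = 2 each). The difference of 2.02 ± 1.71 (SE) did not pass limma's moderated test across 1199 genes (adjusted p = 0.406). The 1 read in ATF4 KO 1 was the assumption that gave whole numbers in the other libraries, within 0.0108 of a read. With 0 or 2 reads assumed there, the other numbers were up to 0.385 and 0.428 from whole.

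Counted over both ATF4 KO libraries, the 168 Mdm4 reads were 76.9 times the number that its WT level and the size factors give (95% exact Poisson interval 65.8 to 89.5). By summed reads they were 4.37 times that number (3.74 to 5.09). Of the 168 reads, 167 were in ATF4 KO 2, so the pooled ratios describe that library. As a share of summed reads, Mdm4 stood below both WT libraries in ATF4 KO 1 and above both in ATF4 KO 2. Mdm4 alone took 0.524% of the reads of ATF4 KO 2. Among 310 genes with a WT level within a factor of 2 of it, 14 (4.52%) had at least as many ATF4 KO reads and 157 (50.6%) had 0 in both.

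Btg2, the antiproliferative p53 target with the cAMP response element match, had 4.42 and 9.86 on the deposited log2 scale in ATF4 KO, against 5.67 and 5.64 in WT. Its reads were 0 and 77 in ATF4 KO, against 821 and 631 in WT. One ATF4 KO value lay below both WT values and the other above both. The mean was 7.14 ± 3.85 in ATF4 KO and 5.66 ± 0.02 in WT (SD, n = 2 each), and the difference of 1.48 ± 2.28 (SE) did not pass (limma, adjusted p = 0.612). The 77 reads were 28.2 times the number from size factors (22.3 to 35.3) and 1.6 times that from summed reads (1.26 to 2.0). All 77 were in ATF4 KO 2. As a share of summed reads, Btg2 thus stood below both WT libraries in ATF4 KO 1, at 0 reads, and above both in ATF4 KO 2.

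Phlda3, the AKT-competing p53 target, had 2.17 and 2.16 on the deposited log2 scale in ATF4 KO, against 2.05 and 2.13 in WT. Both ATF4 KO values stood above both WT values, yet both rested on 0 reads, against 70 and 75 reads in WT. The difference of 0.07 ± 0.03 (SE) did not pass (limma, adjusted p = 0.180). Without library WT 2 it was 0.11 and passed, in a fit whose spread for Phlda3 came from the ATF4 KO values alone, both at 0 reads. The WT level and the size factors give 0.278 reads over the pair of ATF4 KO libraries, fewer than the 3 reads that a count of 0 allows, so no fold is given on that scaling. Summed reads give 4.88, so Phlda3 was at least 1.63-fold lower in ATF4 KO on that scaling, with 3 reads over the pair as the limit. The exact 95% interval, which is wider, puts the ratio between 0 and 0.756.

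Ier5, the immediate early p53 target with the p53 half-site match, had deposited log2 values of 1.93 and 1.93 in ATF4 KO, against 1.84 and 1.84 in WT. Its reads were 0 and 0 in ATF4 KO, against 53 and 43 in WT. The values of the genotypes did not overlap, and the difference of 0.09 ± 0.006 (SE) passed as higher in ATF4 KO (limma, adjusted p = 0.00321). This was a call on the transformed value alone, since no Ier5 read was seen in ATF4 KO. Without reads, the ATF4 KO values differed only through the size factors, so their SD of 0.003 measures no spread of reads. The size factors give 0.181 reads over the pair, below the limit of 3. Summed reads give 3.18, close to the limit, and the exact 95% interval of the ratio, 0 to 1.16, includes equality, so no fold is given on either scaling. Of 207 genes of similar WT level, 82.6% had 0 reads in both ATF4 KO libraries, and of 217 genes similar to Phlda3 80.2% did. At this depth Phlda3 and Ier5 transcripts were not detectable in ATF4 KO, which does not show that they were absent.

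Parp1, the strand-break sensor and the most highly read of the 6 genes in WT, fell in ATF4 KO. It had deposited log2 values of 3.44 and 5.0 in ATF4 KO, against 7.37 and 7.51 in WT, and both ATF4 KO values lay below both WT values. Its reads were 0 and 1 in ATF4 KO, against 4077 and 3603 in WT. The mean was 4.22 ± 1.10 in ATF4 KO and 7.44 ± 0.10 in WT (SD, n = 2 each). The difference was -3.22 ± 0.73 (SE) and lay just inside the threshold of 0.05 (limma, adjusted p = 0.0485). It no longer passed with a replicate block (adjusted p = 0.105), with a stricter filter on low values (0.0542) or without library WT 1 (0.487) or WT 2 (0.512).

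The 1 Parp1 read in ATF4 KO was 0.0688 times the 14.5 reads that size factors give (95% exact Poisson interval 0.00174 to 0.383). It was 0.00391 times the 256 reads that summed reads give (9.9e-05 to 0.0218). Parp1 was thus below its WT level beyond counting error on both scalings, with 2 libraries a group and the spread between libraries as given by the test. Of 110 genes within a factor of 2 of its WT level, 7 (6.36%) had at most 1 read over the pair of ATF4 KO libraries. The median of the 110 genes was 4 reads, itself below the 14.5 and 256 reads given for Parp1. Counts below the expected number were thus common at this WT level and not particular to Parp1.

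Xrcc5, the Ku80 gene, had deposited log2 values of 3.48 and 8.49 in ATF4 KO, against 5.57 and 5.39 in WT. Its reads were 0 and 18 in ATF4 KO, against 1010 and 692 in WT. As in Btg2, the ATF4 KO values enclosed the WT values. The mean was 5.98 ± 3.54 in ATF4 KO and 5.48 ± 0.12 in WT (SD, n = 2 each), and the difference of 0.50 ± 2.10 (SE) did not pass (limma, adjusted p = 0.849). The 18 reads were 5.67 times the number from size factors (3.36 to 8.96) but 0.321 times that from summed reads (0.191 to 0.508). The direction of Xrcc5 thus depended on the scaling. Among 303 genes of similar WT level, 31 (10.2%) had at least as many ATF4 KO reads.

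**Figure D2:**
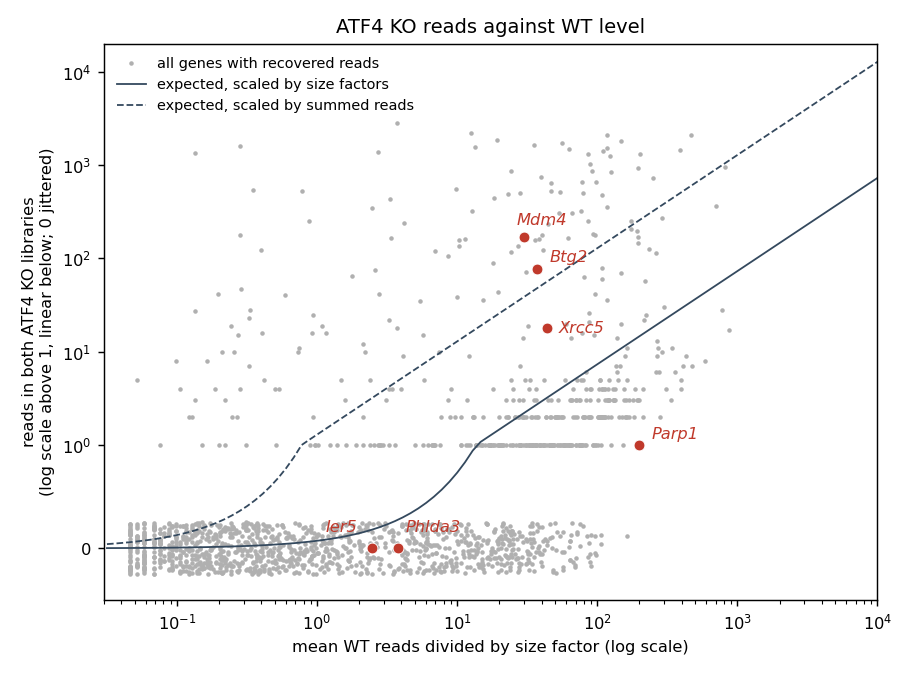
Reads summed over both ATF4 KO libraries (y axis) against mean size-factor-normalised WT reads (x axis) for each gene with recovered reads (grey) and the 6 genes (red), with lines for the number expected by either scaling. Mdm4 with 168 and Btg2 with 77 reads lie above both lines, Xrcc5 with 18 lies between them and Parp1 with 1 lies below both.

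Of the 6 genes, 2 passed the test, 1 as higher (Ier5) and 1 as lower (Parp1). Of the 1199 tested genes 47.0% passed, 24.6% as higher and 22.4% as lower. Both ATF4 KO values lay above both WT values in 2 of the 6 (Phlda3 and Ier5), against 40.5% of tested genes, and below them in 1 (Parp1), against 40.7%. These shares of the 6 do not set them apart from the table as a whole. The median difference was 0.30 over the 6 genes and 0.02 over all tested genes. With 2 libraries a group the smallest two-sided p of an exact permutation test is 0.333, which Phlda3, Ier5 and Parp1 reached.

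The calls in the table followed the number of WT reads where ATF4 KO had none. Of 294 genes called higher with recovered reads, 283 had no read in either ATF4 KO library, with a mean of 7.5 to 78 WT reads and rises of 0.02 to 0.10. Of 268 genes called lower, 257 had 0 reads in both, with a mean of 121 to 3156 WT reads. The WT reads of those groups did not overlap. Ier5, with a mean of 48 WT reads, is among the 283.

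The reads of Mdm4, Btg2 and Xrcc5 lay almost wholly in ATF4 KO 2. Of the size-factor-normalised ATF4 KO reads, 99.4% of Mdm4 and all of Btg2 and Xrcc5 were there, whereas 46.5% to 57.6% of the WT reads of the 6 genes were in WT 2. This was the usual pattern of the ATF4 KO libraries: of 142 genes with at least 10 ATF4 KO reads, 116 (81.7%) had at least 90% of them in one library, against 13 of 1245 genes (1.04%) with at least 10 WT reads.

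**Figure D3:**
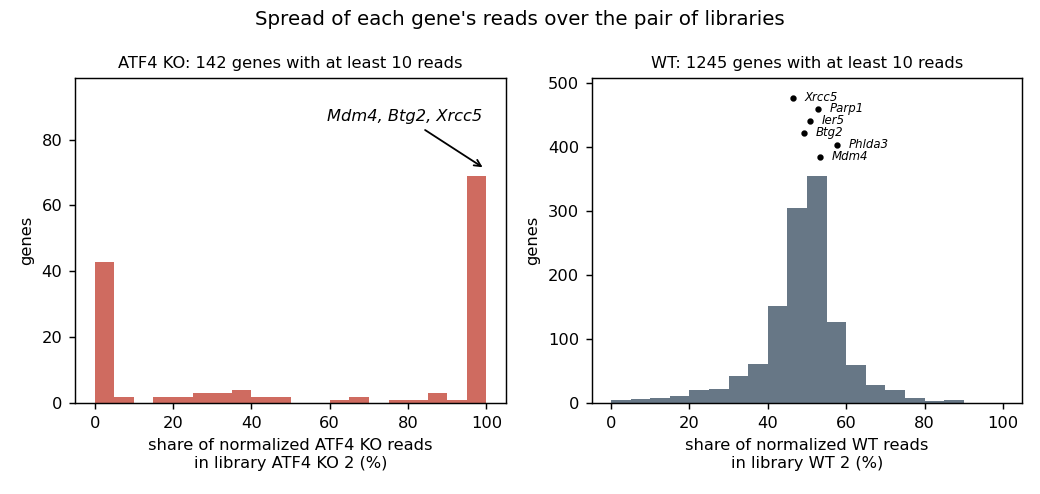
Number of genes (y axis) by the share of their size-factor-normalised reads that lay in library 2 (x axis, percent), in ATF4 KO (left) and WT (right), for genes with at least 10 reads. Mdm4, Btg2 and Xrcc5 fall in the rightmost ATF4 KO bar, while all 6 genes fall near the middle in WT.

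The differences of these 3 genes depended on which ATF4 KO library was used. With ATF4 KO 2 alone, Mdm4 stood 4.01, Btg2 4.20 and Xrcc5 3.01 above WT on the deposited log2 scale. With ATF4 KO 1 alone, Mdm4 stood 0.02 above WT, Btg2 fell by 1.24 and Xrcc5 fell by 2.0. Parp1 stayed lower with either library, with differences of -4.0 for ATF4 KO 1 and -2.45 for ATF4 KO 2. A lone ATF4 KO library is assumed in these fits to vary like WT, so their small errors do not contain the spread between the ATF4 KO libraries.

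**Figure D4:**
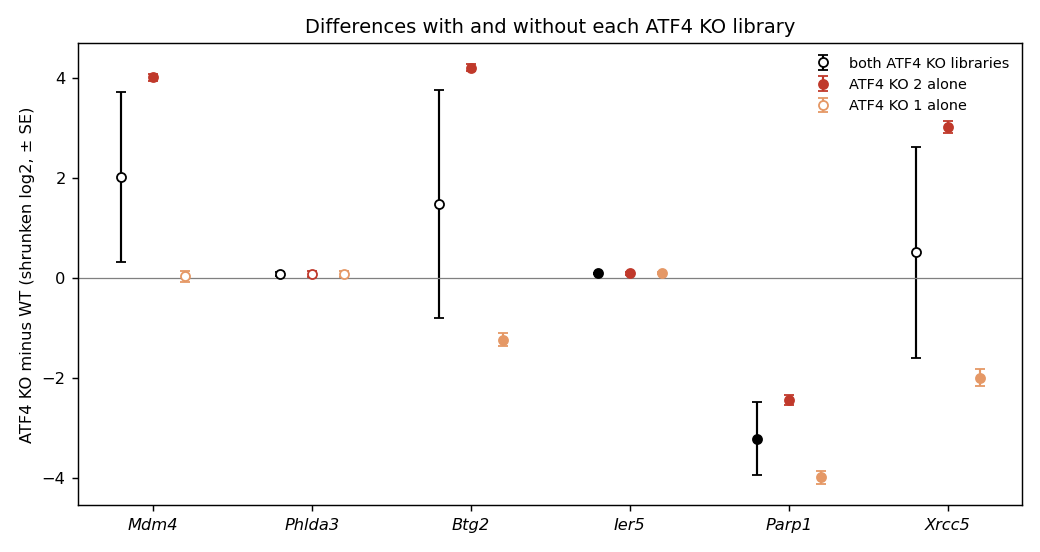
Difference between ATF4 KO and WT (y axis, deposited log2 scale, ± SE from limma) for each gene with both ATF4 KO libraries and with either alone. Filled symbols passed an adjusted p of 0.05. Btg2 and Xrcc5 change sign between the libraries (4.20 and -1.24 for Btg2), whereas Parp1 is negative in each fit. In ATF4 KO 1, Btg2, Xrcc5 and Parp1 had 0 reads. The values were not transformed anew for either library alone.

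Further genes of the same pathways were taken from lists that hold the 6 genes too. Of all 1199 tested genes 47.0% passed, and 612 had an unadjusted limma p under 0.05. Of 34 genes on the list of p53 and its regulators, 5 were tested. Of those 5, 0 passed in either direction (0 also at an unadjusted p under 0.05). Beside Mdm4 these were Cop1, a ubiquitin ligase that targets p53, Trp53bp2, which encodes the p53-binding protein ASPP2, and the lysine methyltransferases Smyd2 and Ehmt1. Smyd2 had 2 and 0 reads in ATF4 KO and 1416 and 1202 in WT. Ehmt1 had 1 and 0 reads in ATF4 KO and 1499 and 1348 in WT, with a difference of -2.10 ± 0.76 (SE) on the deposited log2 scale (limma, adjusted p = 0.130). Trp53bp2 had 0 and 1 reads in ATF4 KO and 475 and 334 in WT, and Cop1 had 0 and 0 in ATF4 KO and 65 and 78 in WT. Mdm4 was thus the one gene of this list with more than 2 reads in an ATF4 KO library.

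Of 80 genes on the list of p53-responsive genes, 13 were tested, of which 5 were called higher and 5 lower, and all 10 had 0 reads in both ATF4 KO libraries. Over all tested genes 47.0% were called, 24.6% higher and 22.4% lower. The 5 called higher were Ier5, Ephx1, Tnni1, Rxra and Ptpn14, with rises of 0.04 to 0.09 and a mean of 17.5 to 69.5 WT reads. The 5 called lower were Coq8a, Steap3, Notch1, Slc19a2 and Ralgds, with a mean of 135.5 to 1712 WT reads. Coq8a, which encodes a kinase-like protein of coenzyme Q synthesis, had 2077 and 1347 reads in WT and differed by -3.24 ± 0.24 (SE) (limma, adjusted p = 0.00371). Steap3, a metalloreductase gene, had 388 and 422 reads in WT and differed by -1.42 ± 0.16 (adjusted p = 0.00935). The summed reads give 112 reads of Coq8a over the pair of ATF4 KO libraries, so it was at least 37.4-fold lower on that scaling. The size factors give 6.37, or at least 2.12-fold. How many genes of similar WT level had 0 reads in both was not counted for Coq8a. Ercc5, of nucleotide excision repair, had 2 and 0 reads in ATF4 KO and 243 and 139 in WT. Btg2 was the one p53-responsive gene of the table with more than 2 ATF4 KO reads.

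Of 141 DNA repair genes, 14 were tested, of which 1 was called higher (Bard1, with 0 reads in both ATF4 KO libraries) and 5 lower, in all 6 of 14, against 47.0% of all tested genes. Among the 5 were Parp1, the mismatch repair gene Pms1, the fork-remodelling gene Smarcal1 and the end-joining gene Nhej1. Smarcal1 differed by -1.87 ± 0.09 (SE) on the deposited log2 scale, with 0 and 0 reads in ATF4 KO and 675 and 481 in WT (limma, adjusted p = 0.00233). Pms1 differed by -1.64 ± 0.10 (adjusted p = 0.00296), with 0 and 0 reads in ATF4 KO and 583 and 393 in WT. The size factors give 2.16 reads of Smarcal1 and 1.82 of Pms1 over the pair, both below the limit of 3. Summed reads give 38.1 and 32.1, so Smarcal1 was at least 12.7-fold and Pms1 at least 10.7-fold lower on that scaling. Mdm4 has a WT level close to theirs, with 2.18 reads given by size factors. Of the 310 genes within a factor of 2 of the Mdm4 level, 50.6% had 0 reads in both ATF4 KO libraries. Folds of this kind were therefore not particular to repair genes.

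Of the 14 repair genes, Xrcc5 and Parp1 included, 7 had ATF4 KO reads in one library, 1 in both and 6 in neither. Dclre1c, which encodes the end-joining nuclease Artemis, had 0 and 1583 reads in ATF4 KO, against 337 and 193 in WT. Those reads were 4.97% of library ATF4 KO 2. Paxx, which encodes a Ku-binding protein, had 156 and 0 reads in ATF4 KO, against 804 and 606 in WT. Dtl, a ubiquitin ligase adaptor of the S phase, had 14 and 0 reads in ATF4 KO, against 3043 and 2333 in WT. Exo1 had 0 and 2 reads in ATF4 KO, against 1119 and 826 in WT, and Ube2t had 1 and 1 in ATF4 KO, against 1208 and 968 in WT. The end-joining genes Xrcc5, Dclre1c and Paxx thus differed in which ATF4 KO library held their reads, and none of the 3 passed the test (adjusted p = 0.849, 0.420 and 0.548 from limma).

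Of 25 immediate early genes, 4 were tested, of which Ier5, with 0 reads in both ATF4 KO libraries, was called higher and Rgs2 lower. Over all tested genes 47.0% were called, 24.6% higher and 22.4% lower. Rgs2, a regulator of G protein signalling, had 0 and 0 reads in ATF4 KO, against 746 and 586 in WT, and differed by -2.06 ± 0.09 (SE) (limma, adjusted p = 0.00226). Rgs1 had 5 and 0 reads in ATF4 KO, against 855 and 761 in WT. Atf3, both an immediate early and a p53-responsive gene, had a single read, in WT 2.

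The genes most like each of the 6 were found by Euclidean distance over the 4 deposited log2 values, among 912 tested genes, predicted models (Gm and Rik names), pseudogenes and the 6 genes themselves being left out. Closest to Mdm4 were Acbd3 (distance 0.43) and Odr4 (0.70), to Btg2 Pam (0.43), and to Xrcc5 Orc2 (0.62) and Pam (1.49). Each of these had its ATF4 KO reads in library 2, among them 431 of Acbd3 and 72 of Pam, and 0 in library 1. Closeness on this shrunken scale does not mean like WT reads. Acbd3 had 66 and 62 reads in WT, against 606 and 546 of Mdm4. Odr4 had 995 and 732, and Pam had 706 and 499, against 821 and 631 of Btg2. Closest to Phlda3 were Brd3os and Cop1 (0.02 each) and closest to Ier5 were Proser2 and Serpinb8 (0.03 each), all with 0 ATF4 KO reads. Nelfb and Yme1l1 were closest to Parp1 (0.87 and 0.90), each with 0 and 2 reads in ATF4 KO.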

How the data were processed

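RNA of sorted LT-HSCs was measured in 2 ATF4 KO and 2 WT libraries, grouped by their titles. HISAT2 2.2.1, featureCounts, DESeq2 and GRCm38 are named, without roles, in the submitters' processing notes. Each gene has 1 deposited log2 value per library, and the sources do not name the transform. The table's incomplete last line was not used. Its other 4167 lines cover most of chromosome 1 and the start of chromosome 2, and 98.8% of the symbols matched GENCODE M21. The 6 genes and all lists were chosen with earlier results of these data known.

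The values met the equations of a regularized logarithm (ridge weight 0.164, lower limit of 0.5 fitted reads), which were solved for whole reads. Reads were recovered for 1871 genes and not for 57. Of 1670 recovered genes with at least 2 WT reads, 97.1% had WT reads within 0.1 of a whole number. The regenerated and deposited values differed by a median of 3.9e-06. The recovery and the fit were tested on simulated data.

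As the values were logarithms, limma 3.58.1 (R 4.3.3, statmod 1.5.0) was fitted to them directly, without a pseudocount, with trended and robust moderation of the variance. Genes entered the test when 2 or more libraries reached a value of 1. Differences are given as ATF4 KO minus WT, with Benjamini-Hochberg adjustment of p-values over all 1199 tested genes. Expected reads are the mean WT level times the ATF4 KO depth, by size factors or by reads summed over recovered genes. Where both ATF4 KO libraries had 0 reads, 3 reads over the pair were the limit. Intervals are exact 95% Poisson intervals (scipy 1.17.1, numpy 2.4.6). Promoters are from RefSeq (GRCm38.p6).

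Beside the 6 genes, the text names from each list up to 6 genes of highest WT mean and up to 3 of lowest p, and the 2 nearest genes to each of the 6. Ephx1, Rxra, Ptpn14, Ralgds, Bard1, Nhej1 and Atf3 fall outside this rule and were named after their values were seen. A few genes that the rule names are not reported here.

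Alternatives were no filter, a lowest value of 3, no trend, no robust estimation, a replicate block and each library left out. Chosen after seeing the data were a fit restricted to genes read in ATF4 KO, and voom (in limma) applied to recovered reads under either scaling.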

Additional observations from a re-analysis of the deposited data

How the results depend on the processing

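The 563 calls over all genes became 1315 (1037 higher, 278 lower) with no filter, 255 (15 and 240) with a lowest value of 3, and 291 (28 and 263) with no trend in the prior variance. With genes that had an ATF4 KO read, limma made 0 calls of 478 (60 at an unadjusted p under 0.05). With limma's voom on summed reads there were 0 of 1155 (493 unadjusted), and with voom on size factors 398 (352 and 46). Leaving out one library gave 634 to 884. The 2 calls among the 6 genes became 1 with no trend, with no robust estimation and with the replicate block. They became 0 with a lowest value of 3, with genes that had an ATF4 KO read and with voom on summed reads, and 1 to 5 with one library left out.

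Parp1 kept its difference of -3.22 but had an adjusted p of 0.0542 with a lowest value of 3, 0.0967 with no trend, 0.0553 with no robust estimation, 0.105 with the replicate block and 0.354 with genes that had an ATF4 KO read. By voom it differed by -3.07 on size factors and by -7.20 on summed reads, where neither passed. Phlda3 differed by 1.82 and Ier5 by 2.45 by voom on size factors, and both passed as higher. Neither had a read in ATF4 KO, where size factors give 0.278 and 0.181 reads over the pair, so no rise in reads was seen. By voom on summed reads the differences were -0.83 for Mdm4, -2.30 for Phlda3, -1.74 for Btg2, -1.68 for Ier5 and -2.86 for Xrcc5, all with the opposite sign to the deposited values and none past the threshold.

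With one library left out, the difference ran between 0.0249 and 4.01 for Mdm4, 0.0369 and 0.113 for Phlda3, and -1.24 and 4.20 for Btg2. It ran between 0.0869 and 0.0917 for Ier5, -4.0 and -2.45 for Parp1, and -2.0 and 3.01 for Xrcc5. The deposited values used there still carried the reads of the library left out. Pooled over the ATF4 KO libraries, scaling by summed reads gave a ratio of 4.37 in place of 76.9 from size factors for Mdm4. It gave 1.6 in place of 28.2 for Btg2 and 0.321 in place of 5.67 for Xrcc5. By share of summed reads, Mdm4 and Btg2 were below both WT libraries in ATF4 KO 1 and above both in ATF4 KO 2. The replicate block left 510 calls. Same-numbered libraries deviated with a correlation of -0.08 over 1199 genes, with 2 pairs, and share only a number. The causes of these shifts were not tested. Depth limits all ATF4 KO values: of the 6 genes, 2 had no read there and 1 had a single read.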
